A study of Drosophila melanogaster with 46 samples.

Results

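The genes described here are 7 genes of retinal determination and photoreceptor differentiation in *Drosophila melanogaster*, *so*, *eya*, *gl*, *ro*, *boss*, *sev* and *chp*, followed in RNA from the larval central nervous system (CNS). They were chosen by symbol, with earlier results of these data known, and all 7 were found among the 17490 rows of the expression table. The table gave RPKM values (reads per kilobase of exon relative to library size) for 4 *Tet CD* libraries and 4 wild-type libraries, which are 8 of the 46 samples of the series. *Tet CD* larvae carry a catalytic-dead allele, *Tet CD-GFP*, in which a double point mutation (HrD to YrA) changes the iron-binding motif of the TET enzyme, while the protein is still made, and wild type is the strain *w1118*. CNS of both genotypes were dissected from larvae at the third instar, and each library was made from the pooled RNA of many brains. RNA of a GFP knock-in with an intact TET enzyme was not analysed here, so the point mutation, the tag and the strain background cannot be told apart.

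The compound eye of the fly develops from an epithelial sac, the eye disc, which is joined to the brain lobe by the optic stalk. Eye identity is set by a network of transcription factors in which *so* (sine oculis, a Six-family homeodomain protein) and *eya* (eyes absent, its coactivator and a protein phosphatase) act as a complex downstream of the Pax6 genes *ey* and *toy*. Behind the moving furrow of the disc, *gl* (glass, a zinc finger factor) is needed for photoreceptor differentiation, and *ro* (rough, a homeodomain protein) patterns the photoreceptor clusters. The R7 photoreceptor is then induced when *boss* (bride of sevenless), a ligand on the surface of the R8 cell, binds *sev* (sevenless), a receptor tyrosine kinase, on the R7 precursor. *chp* encodes chaoptin, a cell surface adhesion protein of photoreceptors that is present on their axons and light-sensing membranes.

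The stretches before the start of 5 of the genes are shown because each holds 1 of the 3 short words picked for display from the 9 that were searched. The words were searched on both strands in the 250 bases before the annotated 5′ end of each gene, in the RefSeq copy of the Release 6 (dm6) genome. Capitals mark the word, CAGCTG (an E-box core) in *chp*, *sev* and *boss*, TAATTA (a homeodomain core) in *gl*, and GAGAG in *eya*.
chp, chr3R:31210766-31210831, minus strand: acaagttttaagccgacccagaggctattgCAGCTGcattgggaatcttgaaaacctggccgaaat
sev, chrX:11086333-11086398, minus strand: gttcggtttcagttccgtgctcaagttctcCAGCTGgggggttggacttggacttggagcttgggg
boss, chr3R:25961906-25961971, plus strand: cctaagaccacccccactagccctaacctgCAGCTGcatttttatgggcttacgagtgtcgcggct
gl, chr3R:18372836-18372901, minus strand: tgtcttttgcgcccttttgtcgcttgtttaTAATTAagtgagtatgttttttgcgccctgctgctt
eya, chr2L:6547068-6547132, minus strand: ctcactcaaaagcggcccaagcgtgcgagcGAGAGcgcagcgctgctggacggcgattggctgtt

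CAGCTG began 71 bases before the start of *chp*, 69 before that of *sev* and 58 before that of *boss*, once in each window. It was present in 3 of the 7 windows and in 12.6% of 17108 windows of the same length over all genes. TAATTA was found 133 bases before *gl*, in 1 of 7 windows against 18.8% of all windows, and GAGAG before *eya* and *so*, in 2 of 7 against 25.3% of all. TGATAC, a core word bound by Six-family proteins, was in 0 of the 7 windows and in 6.61% of all. The other 5 words searched were GAAACC, found before *ro* and *sev* (2 of 7 windows against 11.0% of all), TTGAAA, found before *chp* (1 of 7 against 35.6%), and 3 that were in 0 of the 7 windows. These 3 were CACGTG (in 2.87% of all windows), the word TAATCC (in 7.81% of them) and lastly the word GGGATTA (in 1.72%). The word TAATCC, read on the opposite strand, lies within GGGATTA, and no other word contains another. The words shown in capitals were picked after the matches of all 9 had been seen, so the share of members that hold CAGCTG is a description of a chosen word. The windows had 42.8 to 52.8% G and C, above the median of all windows, 37.2%. These matches describe the sequence and say nothing about which factor binds it.

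In dm6, with the current Ensembl annotation, *so* (FBgn0003460) lies on chromosome 2R from 7419350 to 7434872 on the plus strand, and *eya* (FBgn0000320) on 2L from 6527447 to 6546976 on the minus strand. The gene *gl* (FBgn0004618) lies on 3R from 18367927 to 18372738, *ro* (FBgn0003267) on 3R from 26876771 to 26881171 and *chp* (FBgn0267435) on 3R from 31204180 to 31210730, all on the minus strand. On the plus strand of 3R, *boss* (FBgn0000206) runs from 25961994 to 25966948, while *sev* (FBgn0003366) lies on X from 11071441 to 11086299 on the minus strand. Their merged exons span 2786 bases in *so*, 3690 in *eya*, 3399 in *gl*, 1241 in *ro*, 3013 in *boss*, 8171 in *sev* and 4872 in *chp*, so the 7 genes differ widely in how many reads stand behind 1 RPKM. Of the genes that overlap them on the other strand, 4 lie within *so* and 1 at *ro* with 0 shared exon bases, and an antisense RNA at *sev* shares 75 exon bases. The sources used here do not state a strand setting for the counting, so reads over those 75 bases cannot be assigned to *sev* with certainty.

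The libraries held 17900000 to 19300000 reads in *Tet CD* and 17500000 to 32600000 reads in wild type, as worked out from the steps between low RPKM values. Levels of *Tet* RNA do not check the labels, since the mutation leaves the transcript in place: *Tet* had 81.0, 28.3, 39.2 and 72.4 RPKM in *Tet CD* replicates 1 to 4, against 76.4, 81.8, 88.8 and 83.4 RPKM in wild type. Replicates 2 and 3 of *Tet CD* stood apart in long genes: over the fifth of genes with the longest exons (at least 4146 bases, which includes *sev* and *chp*), the median log2 ratio of these 2 libraries to the mean of wild type was -0.32 and -0.12, against -0.03 to 0.03 in the other 6 libraries. Markers of neurons, neuroblasts and glia were present in all 8 libraries, as the label of a nervous system calls for. The neuron markers (*elav*, *nSyb*, *brp*, *Syt1* and *ChAT*) summed to 190 to 309 RPKM in *Tet CD* and 309 to 354 RPKM in wild type, the neuroblast markers to 135 to 149 and 125 to 154 RPKM, and the glia markers to 222 to 257 and 217 to 233 RPKM.

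All 7 genes were detected in every library, at levels from under 1 to about 30 RPKM. The gene *eya* had the highest RPKM of the 7 in both groups, followed by *sev*, and *ro* and *boss* had the lowest. In *Tet CD*, *eya* averaged 25.3 ± 3.37 RPKM (SD, n = 4), *sev* 14.5 ± 1.03, *gl* 10.6 ± 2.89, *so* 9.78 ± 2.57, *chp* 7.42 ± 1.47, *ro* 2.21 ± 0.328 and *boss* 0.369 ± 0.0931 RPKM. Wild type gave 18.2 ± 3.45 RPKM for *eya* (SD, n = 4), 12.4 ± 1.45 for *sev*, 7.58 ± 1.79 for *so*, 6.10 ± 2.47 for *gl*, 4.10 ± 1.28 for *chp*, 1.40 ± 0.558 for *ro* and 0.213 ± 0.130 for *boss*. In this order of levels, *sev* overlapped with *gl*, *gl* with *so* and *so* with *chp* across *Tet CD* libraries. Across wild-type libraries, *eya* overlapped with *sev*, *so* with *gl*, and *gl* with *chp*. The places of *gl* and *so* were exchanged between the groups, but *gl* was above *so* in only 3 of 4 *Tet CD* libraries.

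**Figure D1:**
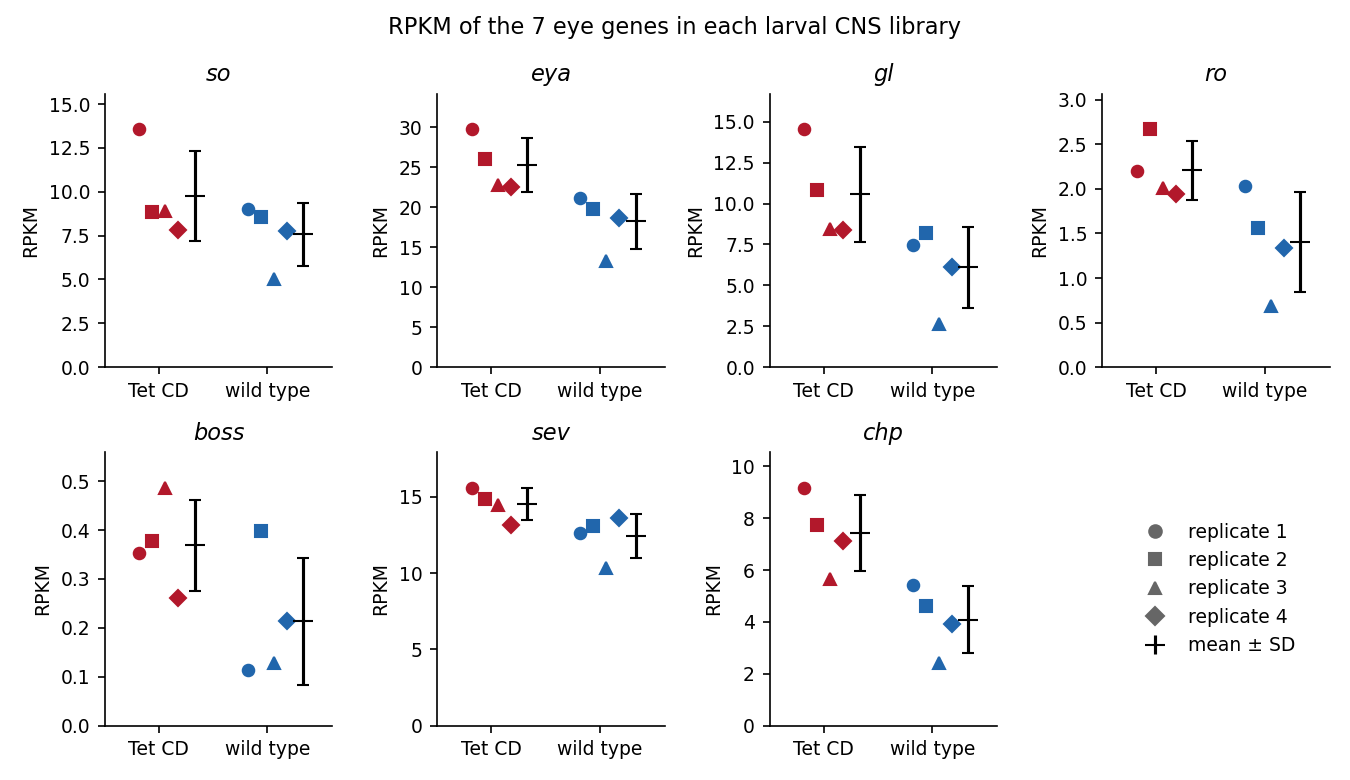
RPKM of the 7 eye genes (y axis, from 0, a different scale for each gene) in the 4 *Tet CD* libraries, left in each panel, and the 4 wild-type libraries, right. Symbols give the replicate number, and the bar beside each group is its mean ± SD. Wild-type replicate 3 is the lowest library for 6 of the 7 genes.

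To ask whether loss of TET catalytic activity came with a change of these genes, values were compared as log2(RPKM + 0.5) with limma over the 9357 genes that averaged 0.5 RPKM or more. On this scale the change of genes with low values is understated. Genes were called where the adjusted p (Benjamini-Hochberg) was under 0.01 and the fold change over 1.2. Of the 7 genes, 6 passed the filter and were tested, and *boss* did not. None of the 6 was called, 0 higher and 0 lower, beside 1.16% of all genes called higher and 1.35% called lower. At the same thresholds the authors, using DESeq2 on read counts, called more genes in *Tet CD* than this fit. A gene not called here is thus not shown to be unchanged. All 6 had fold changes above 0, between 0.22 and 0.81 on the log2 scale with a median of 0.51, beside a median of -0.01 over all genes tested, of which 4545 of 9357 were above 0. At an unadjusted p below 0.05, 5 of the 6 were higher and 0 lower in *Tet CD*, beside 14.4% and 13.9% of all genes. These counts are a description only, since the genes were chosen with earlier results of these data known and move together across libraries. In bulk RNA, a higher level in each cell and more cells that hold the RNA cannot be told apart.

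The 2 partners of the retinal determination complex differed in how far their groups overlapped. The level of *so* was 13.6, 8.84, 8.89 and 7.83 RPKM in *Tet CD* replicates 1 to 4, against 8.99, 8.56, 5.002 and 7.76 RPKM in wild type. *Tet CD* replicate 1 and wild-type replicate 3 were the extremes, and the other 6 libraries lay close together, with the groups overlapping. The log2 fold change of *so* was 0.35 (SE 0.20, 95% interval -0.11 to 0.81, adjusted p = 0.295 from limma), and *Tet CD* was higher in 12 of the 16 pairs of libraries. For *eya*, *Tet CD* libraries had 29.7, 26.0, 22.7 and 22.6 RPKM, against 21.1, 19.8, 13.3 and 18.7 RPKM in wild type. Every *Tet CD* library was above every wild-type library, though the nearest ones differed by little. The log2 fold change of *eya* was 0.47 (SE 0.15, 95% interval 0.14 to 0.80) with an adjusted p of 0.0731 from limma. The two-sided exact permutation test gave p = 0.0286, the smallest that the 70 arrangements of 4 against 4 libraries allow. Every gene whose groups do not overlap reaches this p, so for *eya*, *gl* and *chp* it restates that lack of overlap. Between 1266 and 2384 reads stood behind each value of *eya*, and 360 to 777 behind each of *so*.

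The gene *gl*, which drives photoreceptor differentiation, showed one of the largest differences of the 6 and also the widest spread. It had 14.5, 10.8, 8.45 and 8.39 RPKM in *Tet CD*, against 7.44, 8.21, 2.63 and 6.11 RPKM in wild type. The groups did not overlap, but the lowest *Tet CD* library exceeded the highest wild-type one only narrowly. Its log2 fold change of 0.81 had an SE of 0.31 and a 95% interval of 0.11 to 1.51 (adjusted p = 0.127 from limma, exact permutation p = 0.0286). Within wild type alone *gl* varied 3.12-fold between libraries. The homeodomain gene *ro* had 2.205, 2.67, 2.01 and 1.94 RPKM in *Tet CD*, against 2.03, 1.56, 0.686 and 1.34 RPKM in wild type. Wild-type replicate 1 reached into the *Tet CD* range, so the groups overlapped. The log2 fold change of *ro* was 0.55 (SE 0.22, 95% interval 0.05 to 1.06, adjusted p = 0.145 from limma), on only 22 to 64 reads per library.

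The ligand and the receptor of R7 induction were far apart in level. *boss* had 0.352, 0.378, 0.487 and 0.260 RPKM in *Tet CD*, against 0.114, 0.397, 0.128 and 0.214 RPKM in wild type, and the groups overlapped through wild-type replicate 2. These values rest on 19, 22, 27 and 15 reads in *Tet CD* and on 6, 39, 10 and 14 reads in wild type. Summed over the libraries, 83 reads gave 0.369 RPKM in *Tet CD* (exact 95% Poisson interval 0.294 to 0.457) and 69 reads gave 0.235 RPKM in wild type (0.183 to 0.297). These intervals overlap by little and cover counting error only, not the spread between libraries. *boss* was under the filter, so no test was made. The receptor *sev* had 15.6, 14.9, 14.4 and 13.1 RPKM in *Tet CD*, against 12.6, 13.1, 10.3 and 13.6 RPKM in wild type. It was the most even of the 7 genes, with a coefficient of variation of 7.11% in *Tet CD* and 11.7% in wild type. Its groups overlapped, with a log2 fold change of 0.22 (SE 0.09, 95% interval 0.01 to 0.43, adjusted p = 0.161 from limma). With the exon length trend taken out of each library, the log2 fold change of *sev*, the longest of the 7, was 0.38 (adjusted p = 0.101 from limma).

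The photoreceptor adhesion gene *chp* had the strongest difference of the 6 tested genes by p-value, ranking 854 among the 9357 genes. It had 9.18, 7.72, 5.64 and 7.12 RPKM in *Tet CD*, against 5.43, 4.63, 2.42 and 3.91 RPKM in wild type. All *Tet CD* libraries were above all wild-type libraries. The log2 fold change was 0.81 (SE 0.22, 95% interval 0.32 to 1.31), a 1.76-fold difference, with an adjusted p of 0.0495 from limma and an exact permutation p of 0.0286. At an adjusted p below 0.05, *chp* would be the 1 member called, beside 4.72% of all genes called higher at that threshold. Its adjusted p lay between 0.0113 and 0.104 over the 18 alternative fits, so the gene stood on either side of that threshold.

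**Figure D2:**
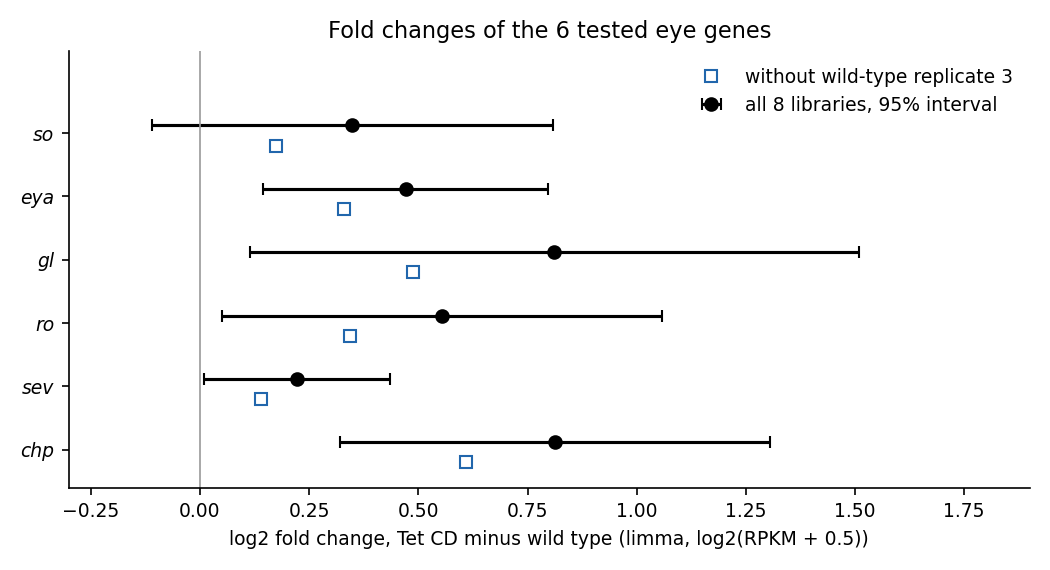
Log2 fold changes of the 6 tested eye genes, *Tet CD* minus wild type (x axis), from limma on log2(RPKM + 0.5). Black points with bars are all 8 libraries with their 95% interval, which reaches below 0 for *so*, and open squares leave out wild-type replicate 3, where every value is smaller.

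Most of the members shared their highest and their lowest library, though *boss* shared neither and the order within the groups varied. *Tet CD* replicate 1 was the highest library for 5 of the 7 genes, and wild-type replicate 3 the lowest for 6 of them, with wild-type replicate 1 lowest for *boss*. The median log2 ratio of the 7 genes to their wild-type means was 0.71, 0.52, 0.45 and 0.32 in *Tet CD* replicates 1 to 4, against 0.26, 0.20, -0.52 and 0.06 in wild type. The medians of the groups did not overlap, with wild-type replicate 1 close below *Tet CD* replicate 4 and wild-type replicate 3 far below both. Non-overlap of the groups was seen for *eya*, *gl* and *chp*, 3 of the 6, beside 9.35% of all genes. Because the genes move together across libraries, these 3 are not separate observations.

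Leaving out wild-type replicate 3 made each difference smaller. The log2 fold change was then 0.61 for *chp* (adjusted p = 0.0933), 0.49 for *gl* (adjusted p = 0.1996), 0.34 for *ro* (adjusted p = 0.286), 0.33 for *eya* (adjusted p = 0.131), 0.17 for *so* (adjusted p = 0.583) and 0.14 for *sev* (adjusted p = 0.348), all from limma. Direction was kept by all 6. The adjusted p of *chp* was over 0.05 without any 1 of the libraries except wild-type replicate 1, and was highest, at 0.104, without wild-type replicate 4, where its log2 fold change was 0.81 as with all libraries. Leaving out *Tet CD* replicate 1 brought *so* to 0.19 and *gl* to 0.65. Without *Tet CD* replicates 2 and 3, the 2 libraries low in long genes, *chp* was at 0.95, *gl* at 0.91, *eya* at 0.52, *ro* at 0.49, *so* at 0.45 and *sev* at 0.21.

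**Figure D3:**
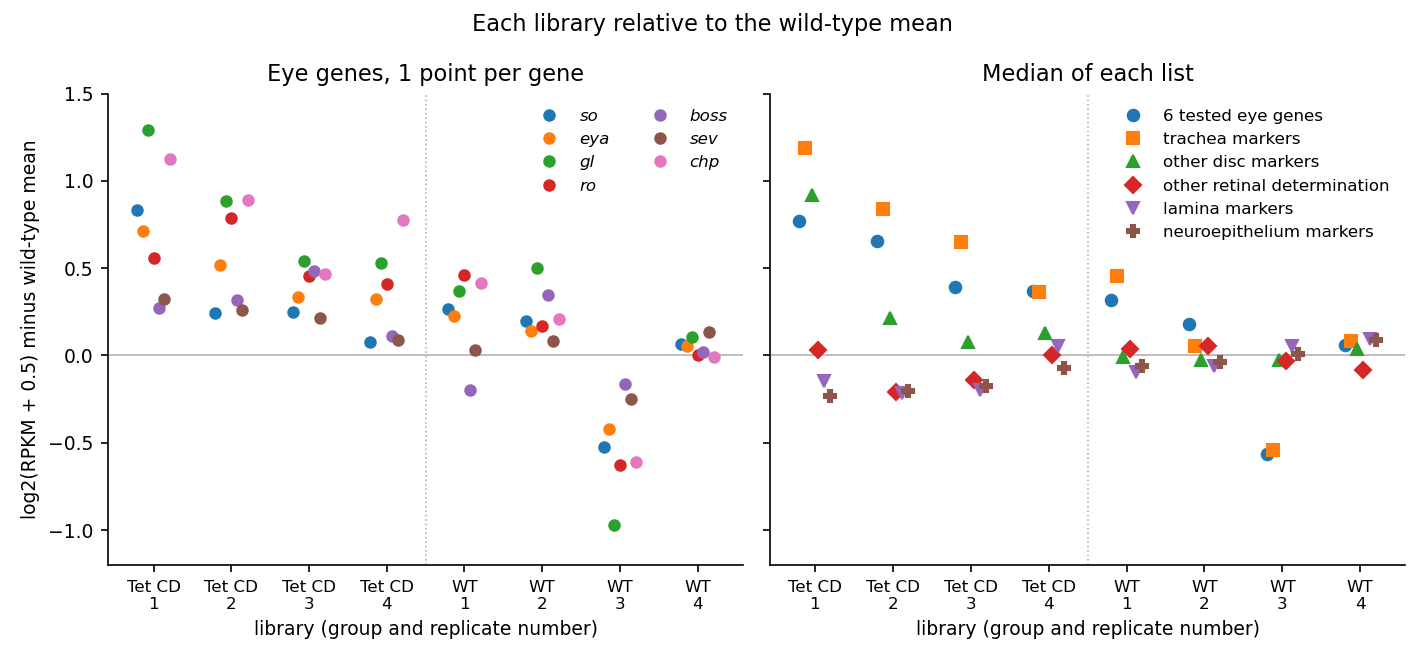
Log2(RPKM + 0.5) minus the wild-type mean (y axis) in each of the 8 libraries (x axis), *Tet CD* left of the dotted line and wild type (WT) right. The left panel has 1 point per eye gene, and the right panel the median of each list. The medians of the tested eye genes and the trachea markers both lie highest in *Tet CD* replicate 1 and lowest in wild-type replicate 3. The median of the disc markers is highest in the same *Tet CD* library and differs little among wild-type libraries. Single disc markers differ more than their median, and the other 3 lists lie near 0 or below it.

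The genes whose profiles over the 8 libraries were nearest to those of the members included *inaC* and *lz*, both for *gl*. These 2 belong to the lists of eye genes described below, and the other nearest genes to none of these lists. Likeness was measured as the mean absolute difference of log2 values, each gene centred on its wild-type mean. For *gl* the nearest of 9356 genes were *inaC* (0.09), the protein kinase C of photoreceptors, and *lz* (0.11), a Runx factor of R7 and cone cell precursors. *inaC* had 3.66, 3.43, 2.91 and 2.89 RPKM in *Tet CD*, against 2.24, 2.53, 0.626 and 1.92 RPKM in wild type. Its groups did not overlap, and its log2 fold change of 0.77 was not called (adjusted p = 0.117 from limma). For *so* the nearest were *ru* (roughoid, 0.08), a rhomboid protease that activates EGFR ligands, and *fz3* (0.08), of the frizzled family. For *eya* they were *PKD* (0.05) and again *ru* (0.05). The nearest to *chp* were *Ppn* (0.09), an extracellular matrix protein, and *CG12075* (0.09), to *ro* they were *CG11905* (0.09) and *CG12075* (0.09), and to *sev* they were *CG8180* (0.05) and *CG7272* (0.06). Among the members themselves, *chp* ranked 14 of 9356 for *gl*, *eya* ranked 17 for *so*, *eya* and *chp* ranked 22 and 24 for *ro*, while the nearest member to *sev*, *so*, ranked 2224. Other pairs were far apart: *gl* ranked 2629 for *eya*, 5118 for *so* and 8553 for *sev*. Such likeness is a description over 8 libraries, in which the pattern of wild-type replicate 3 and *Tet CD* replicate 1 weighs heavily.

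The other genes of the retinal determination network did not follow the members as a group. Of 13 genes, all tested, 0 were called, 4 had fold changes above 0 and 9 below, and the median log2 fold change was -0.09. At an unadjusted p below 0.05, 1 was higher and 4 were lower. The Pax6 gene *toy* had 59.8 ± 6.23 RPKM in *Tet CD* and 63.6 ± 3.58 RPKM in wild type (SD, n = 4 each), and *dac*, a nuclear cofactor of the network, 49.8 ± 6.57 and 50.5 ± 2.57 RPKM, log2 differences of -0.09 and -0.03. The kinase gene *nmo* had 60.3 ± 14.9 and 78.7 ± 2.70 RPKM (log2 difference -0.42 with an adjusted p of 0.113 in limma), and *danr* 33.3 ± 2.11 and 34.8 ± 1.48 RPKM. The spread of *nmo* came mainly from *Tet CD* replicates 2 and 3, with 44.5 and 50.6 RPKM, beside 72.6 and 73.4 RPKM in replicates 1 and 4. The 2 Pax genes *eyg* and *toe*, named here after their values were seen, were nearer to the members. *toe* had 2.61, 2.14, 1.02 and 0.785 RPKM in *Tet CD*, against 0.691, 0.588, 0.323 and 0.422 RPKM in wild type, with no overlap (log2 fold change 1.01, SE 0.30, adjusted p = 0.0630 from limma). *eyg*, its neighbour and paralog, had 3.10, 1.71, 1.04 and 0.764 RPKM, against 1.11, 0.975, 0.307 and 0.629 RPKM in wild type, with overlap. Both were highest in *Tet CD* replicate 1 and lowest in wild-type replicate 3, and how reads of such paralogs were divided is uncertain. The lowest fold change of the list was that of *hth*, also named after its values were seen. *hth* had 27.3, 9.33, 9.33 and 17.3 RPKM in *Tet CD*, against 32.1, 29.2, 26.9 and 24.4 RPKM in wild type, with overlap (log2 fold change -0.95, SE 0.30, adjusted p = 0.0805 from limma).

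Genes of photoreceptor fate were divided. Of 13 genes 12 were tested and 0 were called, with 6 above 0, 6 below and a median of 0.10, and with 4 higher and 2 lower at an unadjusted p below 0.05. The genes *ato* (the proneural factor of R8), *sens* (a zinc finger factor of R8), *lz* and *ss* (of the R7 subtype choice), all named after their values were seen except *lz*, had log2 fold changes of 0.44, 0.68, 0.63 and 0.75. *ato* had 14.6, 12.4, 9.46 and 8.51 RPKM in *Tet CD*, against 8.51, 8.93, 6.84 and 7.86 RPKM in wild type, and *Tet CD* replicate 4 lay inside the wild-type range. Their adjusted p-values from limma were 0.102 to 0.209. The most abundant genes of the list showed another picture. The homeodomain gene *pros*, which acts in R7 and in many cells of the brain, had 33.2, 18.8, 20.8 and 32.9 RPKM in *Tet CD*, against 49.9, 47.6, 47.6 and 43.2 RPKM in wild type, with no overlap (log2 fold change -0.86, SE 0.18, adjusted p = 0.0202 from limma, over the threshold of 0.01). *salr* had 14.9 ± 1.32 RPKM in *Tet CD* and 17.0 ± 0.435 RPKM in wild type (SD, n = 4 each, log2 fold change -0.18), while *mirr* had 14.6 ± 1.69 and 14.9 ± 0.471 RPKM and *svp* 12.2 ± 1.09 and 12.3 ± 1.18 RPKM, with adjusted p-values of 0.838 and 0.981 from limma.

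The signalling pathway downstream of *sev* showed no called gene among 16 tested. Of these, 3 were above 0 and 13 below, with a median of -0.11 (log2), and 6 had an unadjusted p below 0.05, all lower in *Tet CD*. *Ras85D*, the Ras protein itself, had 180 ± 5.62 RPKM in *Tet CD* and 186 ± 6.05 RPKM in wild type (SD, n = 4 each). The adaptor *drk* had 81.2 ± 2.20 and 88.7 ± 3.48 RPKM (log2 fold change -0.13), the MAP kinase *rl* 46.5 ± 3.29 and 53.0 ± 3.56 RPKM (-0.19), and *sina*, a ubiquitin ligase needed in R7, 44.7 ± 1.01 and 47.1 ± 1.35 RPKM (-0.07). Their adjusted p-values were 0.117 to 0.535 in limma. *Dsor1*, the MAP kinase kinase, named after its values were seen, had 39.5, 40.6, 40.6 and 43.5 RPKM in *Tet CD*, against 51.9, 50.5, 50.1 and 47.4 RPKM in wild type. Its groups did not overlap, and its log2 fold change of -0.28 missed the threshold (adjusted p = 0.0120 from limma). These genes act in many tissues, and their levels in whole CNS are not specific to photoreceptors.

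The tested genes of the light response mostly had fold changes below 0. Of 29 genes 16 were tested, with 0 called, 4 above 0, 12 below and a median log2 fold change of -0.26, and with 1 higher and 4 lower at an unadjusted p below 0.05. The genes *ninaA*, *ninaE*, *Rh5*, *Rh6* and *Hdc* are named here after their values were seen. *ninaA* was at 0 in all 8 libraries. *ninaE*, the main rhodopsin of the outer photoreceptors, lay between 0 and 0.0659 RPKM in *Tet CD* and between 0 and 0.0580 RPKM in wild type. The larval photoreceptors use *Rh5* and *Rh6*: *Rh5* had 0.432 ± 0.119 RPKM in *Tet CD* and 0.642 ± 0.114 RPKM in wild type (SD, n = 4 each, adjusted p = 0.319 from limma), and *Rh6* was under the filter. The 4 most abundant genes of this list each had a lower mean in *Tet CD*. One of them, *hdc* (headcase, FBgn0010113), entered the list by its symbol in place of *Hdc* (FBgn0005619), the histidine decarboxylase of photoreceptors, which had 0.662 ± 0.109 RPKM in *Tet CD* and 0.745 ± 0.115 RPKM in wild type. All counts and medians of this list, here and below, include *hdc*, whose log2 fold change of -1.14 was the lowest of the list. *hdc* had 83.4, 22.9, 25.7 and 60.5 RPKM in *Tet CD*, against 93.0, 95.8, 97.8 and 83.6 RPKM in wild type (adjusted p = 0.0809 from limma). *Galphaq* had 24.7, 13.6, 15.9 and 24.1 RPKM, against 30.1, 29.7, 29.4 and 26.4 RPKM in wild type (log2 fold change -0.59, adjusted p = 0.0677 from limma). In both, *Tet CD* replicates 2 and 3 were the lowest libraries. *norpA*, the phospholipase C of phototransduction, had 12.9 ± 4.97 and 19.2 ± 2.07 RPKM, and *Ggamma30A* 46.2 ± 3.85 and 57.0 ± 2.84 RPKM (log2 fold change -0.30, adjusted p = 0.0264 from limma).

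**Figure D4:**
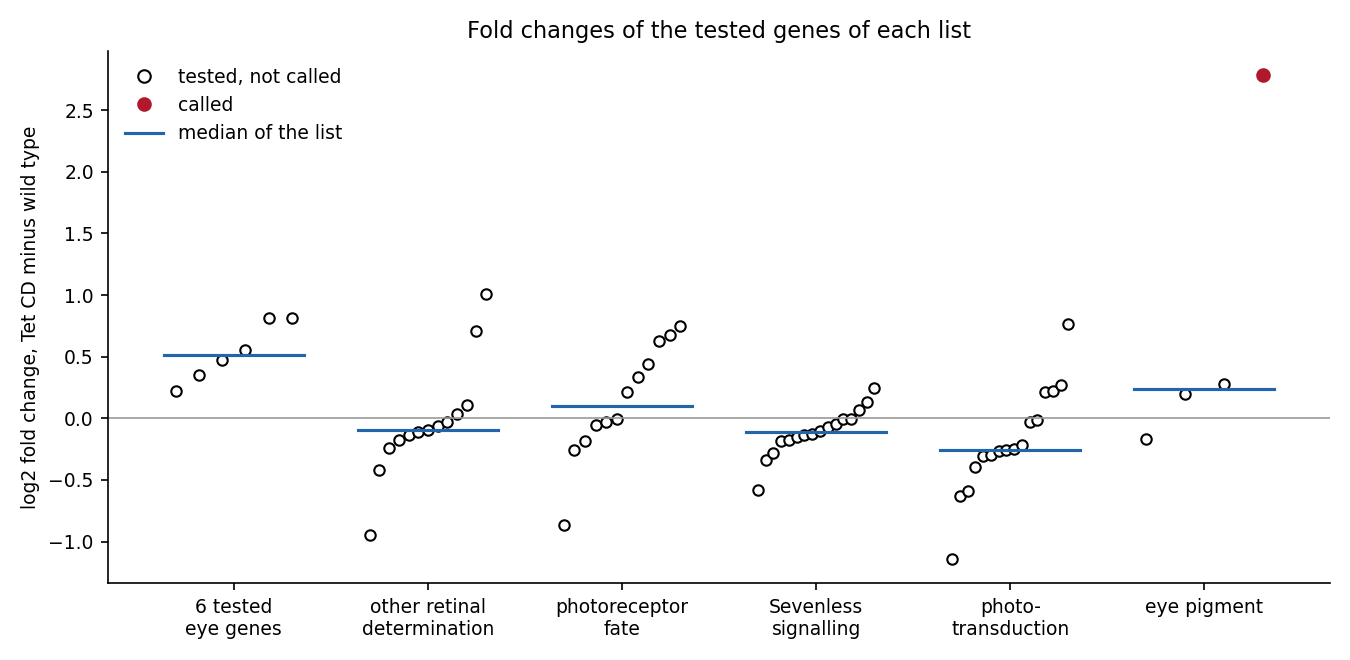
Log2 fold changes, *Tet CD* minus wild type (y axis), of each tested gene of 6 lists (x axis), sorted within a list. Open points were not called, the filled point is *w*, the 1 called gene, and the horizontal lines are list medians, 0.51 for the eye genes, -0.09 for other retinal determination genes and -0.26 for phototransduction. The phototransduction list includes *hdc* (headcase), its lowest point.

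Among 8 eye pigment genes, 4 were tested and 1 was called. This was *w*, the white gene, which is mutated in the *w1118* strain: it had 3.54, 2.88, 2.38 and 3.91 RPKM in *Tet CD* (103 to 176 reads), against 0, 0, 0.0494 and 0.0587 RPKM in wild type (0 to 3 reads), with an adjusted p of 2.36e-05 from limma. The 2 strains thus differ in *w* RNA as well as at *Tet*, and RPKM per gene does not show from where in the genome these reads come. The pteridine gene *pr* had 44.5 ± 4.74 RPKM in *Tet CD* and 38.7 ± 1.86 RPKM in wild type (SD, n = 4 each, log2 fold change 0.19, adjusted p = 0.134 from limma), *ry* 1.97 ± 0.429 and 1.52 ± 0.158 RPKM, *st* 1.07 ± 0.399 and 1.24 ± 0.154 RPKM, and *bw* 0.313 ± 0.0467 and 0.341 ± 0.0141 RPKM.

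Markers of other cell types were read in the same libraries. The 5 tracheal markers (*Gasp*, *serp*, *verm*, *knk* and *uif*) had the same highest and lowest library as most of the members: their median log2 ratio was 1.19, 0.84, 0.65 and 0.36 in *Tet CD* replicates 1 to 4, against 0.45, 0.05, -0.54 and 0.08 in wild type. Their summed level was 100 to 169 RPKM in *Tet CD* and 44.5 to 91.8 RPKM in wild type, none was at 0 in all libraries, and 0 of 5 were called by limma, though all 5 were higher at an unadjusted p below 0.05. At an adjusted p below 0.05, 3 of the 5 were called higher, and 3 were called with array weights, a fit that weights each library by how well it follows the model. The 5 neuron markers went the other way, all with log2 fold changes below 0 and a median of -0.55, with 0 called and 4 lower at an unadjusted p below 0.05, and 3 were called lower with array weights. Their summed levels were lowest in *Tet CD* replicates 2 and 3, the libraries low in long genes. Markers of the wing and antennal discs (*vg*, *nub*, *rn*, *al*, *Doc1* and *Doc2*) summed to 14.8 to 28.5 RPKM in *Tet CD* and 18.6 to 20.3 RPKM in wild type, with 0 of 6 called and 2 higher at an unadjusted p below 0.05, and *Tet CD* replicate 1 was again the highest. Single disc markers varied more: *al* had 1.84, 0.493, 0.343 and 0.764 RPKM in wild-type replicates 1 to 4. By contrast, *rn* lay between 10.5 and 12.0 RPKM there, and both are named after their values were seen. The hemocyte markers summed to 24.6 to 36.9 RPKM in *Tet CD* and 17.0 to 29.7 RPKM in wild type, with 0 of 4 tested called and 3 higher at an unadjusted p below 0.05, and here wild-type replicate 4 was the highest of its group, at 29.7 RPKM. Wild-type replicate 3 also had the lowest median log2 ratio of all libraries for ring gland (-0.87), hemocyte (-0.50) and muscle markers (-0.25). The highest libraries of these lists were wild-type replicate 1, *Tet CD* replicate 4 and *Tet CD* replicate 3, in that order. In the optic lobe, which receives photoreceptor axons, markers of the lamina summed to 105 to 129 RPKM in *Tet CD* and 118 to 126 RPKM in wild type, with 0 of 6 called and 2 lower at that p, and markers of the neuroepithelium to 37.3 to 41.7 RPKM in *Tet CD* and 40.7 to 45.9 RPKM in wild type, with 0 of 4 called, 1 higher and 2 lower at that p. The part of the tracheal, neuron, disc and other markers in the differences of the eye genes was not tested.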

How the data were processed

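Total RNA of larval CNS from 4 *Tet CD* and 4 wild-type (*w1118*) samples was extracted with Trizol, and libraries were prepared with a TruSeq RNA kit. The authors used Cutadapt for trimming, Hisat2 for alignment to dm6 and HTSeq-Count for counting. The deposited RPKM values, 1 column per library, were made by the authors with Cufflinks. Columns were assigned to samples by name. A further 4 value columns matched no sample title and were not used, so *Tet null* RNA was not analysed here, nor were the chromatin experiments.

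Library sizes came from the steps of values under 0.3 RPKM, using exon lengths of Ensembl release 115, a later release than the authors used, which were found for 98.4% of the 17490 genes. Of these low values 97.6 to 98.1% were whole reads within 0.01. Genes averaging 0.5 RPKM or more were compared as log2(RPKM + 0.5) with limma 3.58.1 in R 4.3.3 (lmFit, eBayes with a trend), with Benjamini-Hochberg adjustment over all 9357 genes tested. Single genes were also compared by a two-sided exact permutation test over 70 arrangements. Summaries used scipy 1.17.1, pandas 2.3.3 and numpy 2.4.6 in Python 3.11.15, and figures matplotlib 3.10.9. In simulated data of 9357 genes the same fit was tested on 200 genes shifted by 1 (log2): 154 were called, 0 in the wrong direction, with 2 false calls. The noise was drawn for each gene on its own, without library effects shared between genes, and the shift exceeded the change of every member. The simulation thus does not give the power for the members or the false calls under shared library effects. Depth limits the precision of *ro* and *boss* most.

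The members and all gene lists were chosen with earlier results of these data known. Named are the members, called genes of the 5 pathway lists and up to 4 others per list with the highest mean RPKM, the 2 genes nearest in profile to each tested member, and *Tet*. Any other gene picked from a list was named after its values were seen. Alternatives were a pseudocount of 0.1 or 1, no filter or one at 2 RPKM, scaling by median of ratios, a replicate block, array weights, removal of the trend over exon length (lowess, span 0.3), no eBayes trend, an adjusted p below 0.05, and leaving out libraries.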

Additional observations from a re-analysis of the deposited data

Results flagged for a closer look

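In 50 groups of 4 libraries (the RPKM of each member and of *Tet*, and the median log2 ratio of each list), 5 had 1 library far from the other 3 by Dixon's critical value, where chance gives about 1 in 20. None was a member. Relative to the mean of wild type, the median log2 ratio of the fat body markers was 2.70 in *Tet CD* replicate 2, that of the markers of other imaginal discs was 0.92 in *Tet CD* replicate 1, that of the hemocyte markers was 0.51 in *Tet CD* replicate 2, the lowest of its group, that of the ring gland markers was -0.75 in *Tet CD* replicate 4, and that of the phototransduction genes was -0.057 in wild-type replicate 4. *Tet CD* replicate 1, high in markers of other discs, is also the library in which 5 of the 7 eye genes were highest. The part of these libraries in the results was not tested beyond leaving each of them out.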

How the results depend on the processing

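No member was called in any of the alternative fits, except *chp* at an adjusted p below 0.05 (1 member called), and each of the 6 tested members kept a fold change above 0. Over all genes, 109 were called higher and 126 lower in *Tet CD*. These counts were 51 and 60 with the replicate block, 826 and 1024 with array weights (which put a weight of 6.32 on *Tet CD* replicate 3), 442 and 350 at an adjusted p below 0.05, and 51 to 203 and 70 to 203 when each library was left out in turn. The count called higher was 176 with the exon length trend removed and 42 without *Tet CD* replicates 2 and 3. The count called lower with array weights was 3 for retinal determination, 3 for Sevenless signalling, 2 for photoreceptor fate and 5 for phototransduction genes, a list that includes *hdc* (headcase). It was 1 each for Sevenless signalling and photoreceptor fate with the length trend removed, 1 for photoreceptor fate without *Tet CD* replicates 2 and 3, 1 each for Sevenless signalling, photoreceptor fate and phototransduction at an adjusted p below 0.05, and 0 to 1 in each of the 4 lists when single libraries were left out. With a filter at a mean of 2 RPKM, 0 eye pigment genes were called, since *w* was no longer tested. The log2 difference of *boss* was 0.30, and 0.65 with a pseudocount of 0.1. The log2 fold change of *Tet* was -0.70 (not called), -0.93 to -0.43 when single libraries were left out and -0.11 without *Tet CD* replicates 2 and 3, and it passed the threshold with array weights only, at -1.01. When single libraries were left out, log2 fold changes lay between 0.61 and 0.95 for *chp*, 0.49 and 0.98 for *gl*, 0.34 and 0.71 for *ro*, 0.33 and 0.55 for *eya*, 0.17 and 0.44 for *so*, and 0.14 and 0.27 for *sev*, and the log2 difference of *boss* between 0.23 and 0.41. Same-numbered libraries of the 2 groups deviated with correlations of 0.24, -0.19, 0.04 and -0.11 for replicates 1 to 4, and 2 of 4 *Tet CD* libraries correlated best with their own number, so the numbers were not taken as pairs. The cause of these changes was not tested.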

Other observations

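The phototransduction genes *prom* and *trp*, named after their values were seen, were outside the tests and had separate groups. *prom*, prominin, which acts with *eys* in shaping the light-sensing membranes of the retina, had 0.179, 0.213, 0.236 and 0.167 RPKM in *Tet CD*, against 0.771, 0.617, 0.469 and 0.788 RPKM in wild type. *trp*, a light-activated channel, had 0.0135, 0.0250, 0.0262 and 0.0126 RPKM in *Tet CD*, against 0.0827, 0.0296, 0.0653 and 0.0887 RPKM in wild type, on 1 to 8 reads per library. For both, all *Tet CD* libraries were below all wild-type libraries, but the genes were under the filter and have no test. In the optic lobe list, *l(1)sc*, a proneural gene at the edge of the neuroepithelium, also named after its values were seen, had 9.88, 8.82, 9.60 and 8.15 RPKM in *Tet CD*, against 4.43, 6.29, 7.69 and 6.08 RPKM in wild type, with no overlap (log2 fold change 0.56, SE 0.14, adjusted p = 0.0441 from limma). The other 3 genes of that list had fold changes below 0, and *Optix*, also a gene of the retinal determination network and named after its values were seen, had 14.5, 15.2, 14.1 and 14.5 RPKM in *Tet CD*, against 16.3, 16.1, 16.1 and 17.6 RPKM in wild type (log2 fold change -0.18, adjusted p = 0.0837 from limma).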
